A study of Mus musculus with 13 samples.

Results

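The genes of the cytosolic ribosomal proteins were examined in the liver of mice made obese on a high-fat diet. A gene was included where an Affymetrix probe set with exactly 1 gene symbol carried a symbol of the form Rpl or Rps followed by a number, or was Rplp0, Rplp1, Rplp2 or Rpsa. Of 22180 genes on the arrays, 67 met this rule, 42 of the large 60S subunit and 25 of the small 40S subunit. A gene with several probe sets was represented by the brightest of them, averaged over the 13 arrays. All arrays held liver RNA of male C57Bl/6J mice that were 6 weeks old at the start and were fed a diet with 60% fat for 4 weeks. Treatments of 4 weeks followed, on 13 arrays in all. Mice of the CANA group (4 arrays) kept the diet and received canagliflozin, an inhibitor of the renal glucose transporter SGLT2, at 25 to 30 mg/kg. Those of the CR group (5 arrays) were calorie-restricted by 15 to 30% to the weight of the CANA mice, and those of the HFD group (4 arrays) simply stayed on the diet. The labels also give each array a serial number between 1 and 14, whose meaning they do not state, and 6 arrays were numbered 9 to 14 and 7 were numbered 1 to 8.

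Each cytosolic ribosome joins a large subunit, which forms peptide bonds, to a small subunit, which reads the messenger RNA, and every one of their proteins has its own gene. The messengers of these genes begin with a run of pyrimidines, the TOP motif, through which the kinase mTORC1 and the RNA-binding protein LARP1 set their translation and stability with the supply of amino acids and insulin. In liver, growth and feeding raise ribosome production, and several of these genes, among them Rplp0, Rps18, Rpl32 and Rpl19, serve as references for qPCR because their levels are taken as steady.

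Values were deposited as log2 intensities after the robust multi-array average, and a difference of 1 on that scale is a doubling. Genes whose mean fell short of 3.95, the 40th percentile of all genes, were treated as dim and not tested, which left 13308 genes and 55 of the 67, 32 of the 60S and 23 of the 40S subunit. The 12 that were not tested were Rpl10l, Rpl11, Rpl22l1, Rpl27a, Rpl30, Rpl32l, Rpl37, Rpl37a, Rpl3l, Rplp2, Rps15 and Rps20, with means between 2.39 and 3.90. Another 22 mouse symbols of the rule had no probe set with a single symbol, Rpl13a and Rpl10 among them, and were not analysed here. Probe sets of these genes can also bind RNA of processed pseudogenes and close paralogs, so that a value may hold RNA of more than the named gene. Array medians lay between 4.07 and 4.13, and pairs of arrays correlated at 0.971 to 0.985. Precision is limited by how few arrays there are. All 9 hepatocyte markers were tested, with albumin (Alb) at 14.01. Separate animals are not stated for the arrays, and the p-values therefore cover only the spread among these samples, which may be technical. In bulk liver, fewer cells of a type and less RNA per cell cannot be told apart.

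RefSeq promoter entries (GRCm38.p6, 250 bases before to 50 after the annotated start) were matched by symbol for 52 of the 67 genes, with 61 entries. Some are shown, for genes whose values are described below. The first 5 were lower in serial numbers 9 to 14 than in 1 to 8, the next 3 were not, Rps6 is the subunit that S6 kinase phosphorylates, and Rplp0 is the base of the stalk. Each window runs from 20 bases before the annotated start to 50 bases after it, 70 bases in all. Capitals mark its longest run of C and T, wherever that lies. Windows of Rps28 and Rps23 are not printed, and their longest runs were 4 and 15 bases. For serial numbers 9 to 14 minus 1 to 8, Rps28 stood at -0.25 and Rps23 at 0.07.
Rpl26 (chr11:68901546-68901615, plus strand): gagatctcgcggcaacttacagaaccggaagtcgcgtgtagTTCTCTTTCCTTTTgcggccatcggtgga
Rps10 (chr17:27635195-27635264, minus strand): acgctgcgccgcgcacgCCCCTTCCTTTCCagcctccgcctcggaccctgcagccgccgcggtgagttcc
Rpl35 (chr2:39005082-39005151, minus strand): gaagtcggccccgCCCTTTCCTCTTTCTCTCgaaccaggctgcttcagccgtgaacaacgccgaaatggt
Rps25 (chr9:44407694-44407763, plus strand): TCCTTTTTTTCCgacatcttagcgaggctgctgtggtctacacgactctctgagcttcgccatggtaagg
Rps3a1 (chr3:86142619-86142688, minus strand): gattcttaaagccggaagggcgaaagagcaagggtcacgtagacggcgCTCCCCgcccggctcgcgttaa
Rpl38 (chr11:114668560-114668629, plus strand): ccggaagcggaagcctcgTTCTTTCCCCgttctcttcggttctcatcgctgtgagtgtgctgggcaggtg
Rpl28 (chr7:4792945-4793014, plus strand): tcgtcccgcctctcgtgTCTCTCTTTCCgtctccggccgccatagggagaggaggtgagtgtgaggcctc
Rpl4 (chr9:64173367-64173436, plus strand): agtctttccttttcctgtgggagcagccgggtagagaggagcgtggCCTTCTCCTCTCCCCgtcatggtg
Rps6 (chr4:86857318-86857387, minus strand): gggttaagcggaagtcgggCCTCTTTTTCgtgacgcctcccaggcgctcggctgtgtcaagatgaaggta
Rplp0 (chr5:115559447-115559516, plus strand): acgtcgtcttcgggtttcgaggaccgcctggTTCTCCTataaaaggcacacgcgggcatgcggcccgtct
An unbroken run of at least 8 pyrimidines lay in the window of 65.6% of the 61 entries, against 25.4% of the 32851 mouse promoters. The window had been widened after the sequences were seen. A run was counted wherever it lay in the window, so it need not be a TOP motif at the first base of the messenger. The longest run had a median of 10 bases, against 6 over all promoters. On the sense strand of the window, CTTTCC occurred in 21.3%, against 3.24%.

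The ETS-type motif CCGGAAG, searched on both strands of the 300 bases, occurred in 37.7% of these promoters, against 8.86% of all promoters. AAGATGG, a YY1-type motif searched on both strands, was found in 11.5%, against 6.34%. TATAAA on the sense strand before the start was in 4.92%, against 7.59%. Matches of these motifs may overlap by shared letters, and CTTTCC may lie inside a counted pyrimidine run. The whole entries of Rpl26 and Rpl38, the only genes of the 55 whose values in the 2 sets of serial numbers did not overlap and which lay on opposite sides of zero, are given with CCGGAAG in capitals.
Rpl26 (chr11:68901316-68901615, plus strand): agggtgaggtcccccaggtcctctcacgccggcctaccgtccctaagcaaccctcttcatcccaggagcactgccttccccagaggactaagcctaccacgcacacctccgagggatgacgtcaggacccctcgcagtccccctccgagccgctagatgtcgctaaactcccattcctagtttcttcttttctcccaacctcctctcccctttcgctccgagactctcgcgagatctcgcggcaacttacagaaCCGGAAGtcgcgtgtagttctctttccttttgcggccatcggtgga
Rpl38 (chr11:114668330-114668629, plus strand): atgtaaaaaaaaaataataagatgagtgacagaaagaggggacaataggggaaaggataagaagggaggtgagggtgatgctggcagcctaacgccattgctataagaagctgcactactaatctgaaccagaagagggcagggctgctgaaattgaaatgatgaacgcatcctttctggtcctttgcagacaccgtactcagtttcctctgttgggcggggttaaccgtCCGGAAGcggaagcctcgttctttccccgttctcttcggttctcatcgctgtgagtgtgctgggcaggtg
The match began 4 bases after the annotated start in Rpl26 and 20 bases before it in Rpl38. Both genes thus carried this motif and a pyrimidine run, of 14 and 10 bases. A match describes the letters in the window and is not a measured binding site.

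Canagliflozin was first set against continued high-fat feeding, where the ribosomal protein genes stayed close to zero. None of the 55 passed an adjusted p of 0.05 in limma (0.165% of all genes did). The median CANA minus HFD difference was 0.01, against -0.01 over all genes tested, with 29 genes above and 26 below zero. The 60S genes had a median of -0.02 and the 40S genes one of 0.04. At an unadjusted p under 0.05 there were 2 genes, both higher in CANA, against 8.82% of all genes. No gene had groups that did not overlap, which 4.9% of all genes had. The differences ran between -0.23 and 0.38, and the 95% interval lay within 0.5 of zero for 43 of the 55 genes and within 1 for all of them.

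Rpl28, a protein of the large subunit, had the largest moderated t of the 55 in CANA. Its log2 values were 11.78, 11.26, 11.58 and 11.92 in CANA, against 11.18, 11.08, 11.19 and 11.57 in HFD. All CANA arrays but CANA 2 lay above every HFD array, and CANA 2 lay below HFD 4 and above the rest. The difference was 0.38 (SE 0.14), with a limma adjusted p of 0.404. Rps28, at the messenger exit of the small subunit, had 9.32, 9.30, 8.67 and 8.80 in CANA, against 8.86, 8.81, 8.52 and 8.66 in HFD. Its first 2 CANA arrays, both with serial numbers of 1 to 8, were the high ones, and the other 2 lay among the HFD arrays. The difference was 0.31 (SE 0.14, adjusted p = 0.536). Rps18 averaged 5.56 ± 0.16 in CANA and 5.29 ± 0.27 in HFD (SD, n = 4 each), a difference of 0.27 that did not pass limma's test (adjusted p = 0.58). Rpl13 and Rps23 followed, at 0.19 and 0.30. At the low end stood Rpl6l at -0.21 (adjusted p = 0.628), Rpl34 at -0.15, Rpl5, which carries 5S ribosomal RNA into the large subunit, at -0.22, Rpl17 at -0.23 and Rplp1 at -0.11.

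Caloric restriction to the same weight was next set against continued feeding. No gene passed in limma among the 55 or among all genes (0% of all genes). The median CR minus HFD difference was 0.02, against -0.01 over all genes, with 31 genes above and 24 below zero. Rpl28 was the single gene with an unadjusted p under 0.05, against 3.74% of all genes, and none had groups that did not overlap, against 1.17%. It had 11.70, 11.45, 11.50, 11.67 and 11.44 in CR, against the HFD values above. All 5 CR arrays exceeded 3 of the HFD arrays, and the fourth, HFD 4, lay within them. The difference was 0.30 (SE 0.13), with a limma adjusted p of 0.999. CANA and CR share the HFD arrays, so their Rpl28 differences are not independent. Rps3a1, a small-subunit protein, averaged 7.69 ± 0.23 in CR and 8.02 ± 0.39 in HFD (SD, n = 5 and 4), a difference of -0.33. Rps25 stood at -0.20 and Rpl23a, a docking site for nascent-chain factors at the exit tunnel, at -0.17, with adjusted p = 0.999 for all 3 in limma. The intervals lay within 0.5 of zero for 45 of the 55 genes and within 1 for all. Without HFD 3 the median over the 55 genes was -0.03 for CR minus HFD and -0.04 for CANA minus HFD.

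The CR group is the weight-matched control for canagliflozin, per the labels. Between CANA and CR, none of the 55 genes passed in limma (0.15% of all genes did), and the median difference was 0.01, against -0.00 over all genes. An unadjusted p under 0.05 was reached by 2 genes, both lower in CANA, against 8.43% of all genes, and no gene had groups that did not overlap, against 2.93%. Rps14, a small-subunit protein near the platform, had 5.08, 4.79, 4.91 and 4.83 in CANA, against 5.06, 5.31, 5.40, 5.29 and 5.00 in CR. CANA 2, 3 and 4 lay below every CR array, and CANA 1 lay among the lower CR arrays. The difference was -0.31 (SE 0.10), with a limma adjusted p of 0.377. Rpl7l1, a paralog of Rpl7, had 5.76, 4.45, 4.95 and 5.32 in CANA, against 5.61, 5.71, 5.61, 5.54 and 5.28 in CR. CANA arrays lay on both sides of the CR range, which made the spread in CANA (SD 0.56) larger than that in CR (SD 0.16). The difference was -0.43 (SE 0.19, adjusted p = 0.557). Against HFD, Rps14 stood at -0.11 in CANA and 0.20 in CR, and Rpl7l1 at -0.11 and 0.32. For both genes CR thus lay farther above HFD than CANA lay below it. Rpl7 itself stood at 0.11 (SE 0.12) for CANA minus CR.

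The subunits lay on different sides of zero in this comparison. Of the 40S genes 17 of 23 were above zero with a median of 0.04, and of the 60S genes 13 of 32 with a median of -0.03, a split that was not tested. Rps13, Rps3a1, Rps28 and Rps25 stood at 0.36, 0.32, 0.23 and 0.17, and Rpl39 at 0.22, while Rpl3, which lies at the peptidyl transferase centre, stood at -0.28 and Rpl39l at -0.21. A dimmer probe set of Rpl3 (mean 5.75) stood at 0.08, so that the probe sets of Rpl3 disagreed in sign. None of these passed in limma, and Rpl3, the nearest, had an adjusted p of 0.598. Without CANA 3 the median of all 55 genes was 0.08, against 0.01 with it.

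**Figure D1:**
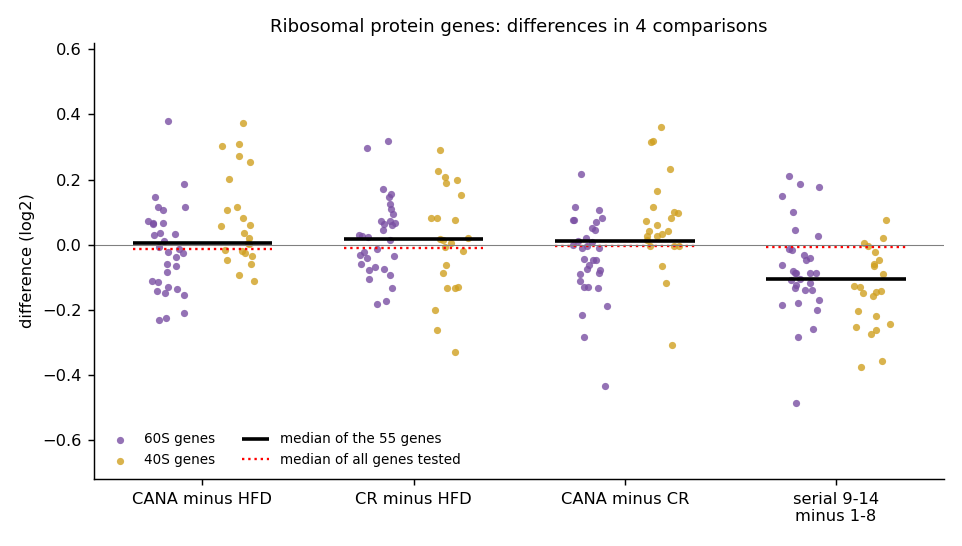
Differences in log2 value of the 55 tested ribosomal protein genes (vertical axis) in the 4 comparisons (horizontal axis), 60S and 40S genes apart, 1 point a gene, with the median of the 55 genes and of all genes tested as lines. The 3 treatment comparisons are centred near zero, with medians of 0.01, 0.02 and 0.01, and the comparison of serial numbers lies at -0.11.

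Genes with roles of their own were read in every comparison. Rps6, the substrate of S6 kinase, had 11.48, 11.43, 11.12 and 11.40 in CANA, 11.36, 11.49, 11.31, 11.39 and 11.26 in CR, and 11.35, 11.50, 11.23 and 11.33 in HFD. The groups overlapped throughout, CANA 3 was the lowest array, and the differences from HFD were 0.00 for CANA (95% interval -0.21 to 0.21) and 0.01 for CR (-0.19 to 0.20). Of the stalk proteins, which recruit the elongation factors, Rplp0 averaged 7.05 ± 0.28 in CANA, 7.05 ± 0.14 in CR and 7.11 ± 0.09 in HFD (SD, n = 4, 5 and 4), and Rplp1 10.58 ± 0.15, 10.71 ± 0.07 and 10.69 ± 0.19 in that order. A second Rplp0 probe set, dimmer at a mean of 5.09, stood at 0.44 for CANA minus HFD, while the brighter one stood at -0.06. These 2 probe sets of 1 gene thus disagreed in sign. Among the genes used as qPCR references, Rpl32 stood at -0.01 (95% interval -0.20 to 0.19) and Rpl19 at 0.01 (-0.26 to 0.29) for CANA minus HFD, and at 0.07 and -0.10 for CR minus HFD. Rps18, in the same use, had the widest difference of them in CANA, at 0.27.

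Paralogs of ordinary subunits were compared with HFD only within each probe set. Rps27l, a paralog of Rps27, was at -0.06 in CANA and -0.13 in CR, and Rps27 at 0.20 and 0.21. Rps4l was at 0.26 and 0.15, and the X-linked Rps4x at -0.02 and -0.09. Rpl39l, known for its expression in testis, was at -0.14 and 0.07, and Rpl39 at 0.15 and -0.07. Rpl22 was at 0.07 and 0.05, with its paralog Rpl22l1 not tested. Rpl3l, a muscle paralog of Rpl3, and the testis gene Rpl10l were below the dim limit. No paralog or partner among these passed the test in limma (the smallest adjusted p was 0.767, for Rps4l in CANA). Fau, a ubiquitin-like fusion that encodes the small-subunit protein eS30, lies outside the symbol rule and stood at 0.03 in CANA and in CR.

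**Figure D2:**
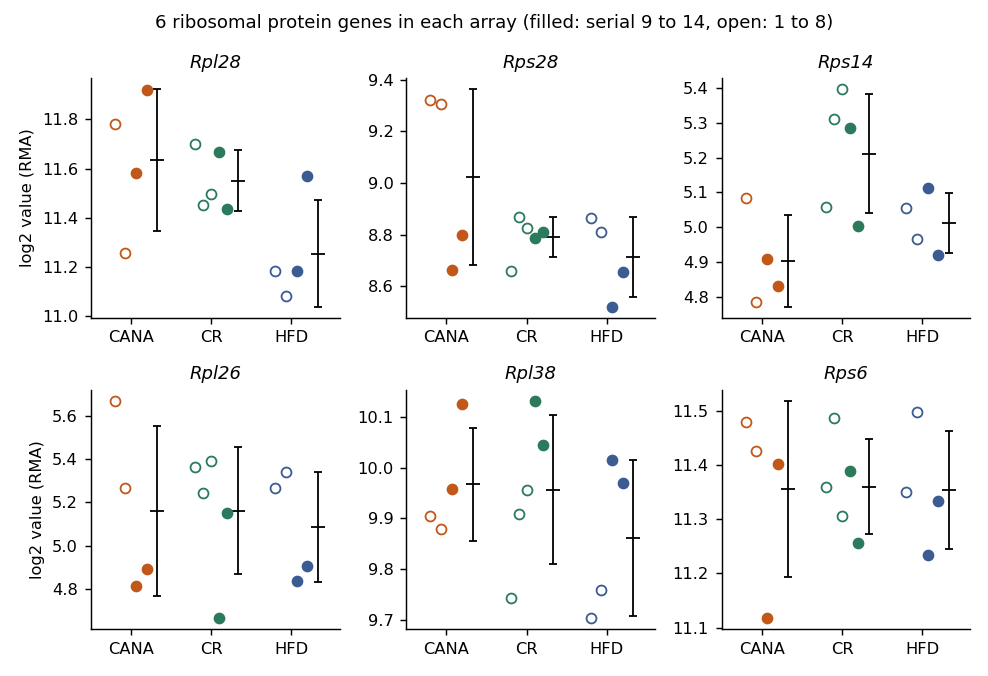
Log2 values (vertical axes) of 6 ribosomal protein genes in each array by group (horizontal axes), with serial numbers 9 to 14 filled and 1 to 8 open, and the mean with SD as a bar beside each group (n = 4, 5 and 4). Rpl28 and Rps28 have high CANA arrays, and most Rps14 values in CANA lie below those in CR. In Rpl26 every filled point lies below every open one, whereas in Rpl38 the filled points lie above.

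Between the sets of serial numbers, in a fit with the treatment group as a term, the ribosomal protein genes lay mostly on one side. Of the 55 genes 45 (81.8%) were lower in serial numbers 9 to 14 than in 1 to 8, where 52.5% of all genes were. The median difference was -0.11, against -0.01 over all genes. None passed an adjusted p of 0.05 in limma (0.105% of all genes did). At an unadjusted p under 0.05 there were 14 genes, against 13.3% of all genes, and 12 of them were lower, against 6.6% of all genes. Without HFD 3 the count in either direction was 9 where it had been 14, against 11.7% of all genes in that fit. Of the 40S genes 20 of 23 were below zero with a median of -0.14, and of the 60S genes 25 of 32 with a median of -0.09. The sets did not overlap in 2 genes, against 0.549% of all genes.

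Rpl26, a large-subunit protein beside the exit tunnel, was nearest to the threshold. Its lowest, median and highest log2 values were 4.67, 4.86 and 5.15 in serial numbers 9 to 14, against 5.24, 5.34 and 5.67 in 1 to 8. The sets did not overlap, and the same order held inside each group. The difference was -0.49 (SE 0.09, 95% interval -0.68 to -0.29), with a limma adjusted p of 0.051. Within CANA it was -0.62, within CR -0.42 and within HFD -0.43. The gene has a single probe set of low brightness. Without CANA 2, CR 2 or CR 5 the adjusted p was 0.0449, 0.0313 or 0.0167, so that 1 array decided on which side of 0.05 it fell.

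Rps10, a small-subunit protein at the head, had 5.77, 5.99 and 6.24 (lowest, median, highest) in serial numbers 9 to 14, against 6.17, 6.23 and 6.43 in 1 to 8. Only CANA 4 of the later set reached into the earlier one. The difference was -0.28 (SE 0.08, adjusted p = 0.15), with -0.32 within CANA, -0.29 within CR and -0.21 within HFD. Rpl35, at the mouth of the exit tunnel, had 9.31, 9.51 and 9.60, against 9.55, 9.81 and 9.93, a difference of -0.28 (SE 0.09, adjusted p = 0.162). Here the CR arrays differed by only -0.03 between the sets, while CANA and HFD differed by -0.42 and -0.44. Rps19, Rps25, Rps3a1, Rps28 and Rps29 stood at -0.26, -0.22, -0.36, -0.25 and -0.24, with adjusted p values of 0.217 to 0.255. Rps13, Rps12, Rpl14 and Rpl41 made up the 12. Rpl41, which encodes the smallest of these proteins, was read by 5 probe sets, which lay between -0.22 and -0.13.

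Further genes of the 12 had sets that overlapped more. Rps25, a small-subunit protein used by internal ribosome entry sites, had 7.86, 8.00 and 8.13 (lowest, median, highest) in serial numbers 9 to 14, against 7.96, 8.18 and 8.48 in 1 to 8. Rps3a1 had 7.38, 7.65 and 8.21, against 7.58, 8.11 and 8.38, in the same order of sets. In Rps3a1 CANA 4 stood high among the later arrays and CR 1 low among the earlier ones. Rps19, mutated in human Diamond-Blackfan anaemia, had 7.52, 7.68 and 7.82 in serial numbers 9 to 14, against 7.64, 7.97 and 8.18 in 1 to 8. Rps13 had 5.74, 5.89 and 6.69, against 5.78, 6.30 and 7.08, and its within-group differences were -0.48 in CANA, -0.38 in CR and -0.27 in HFD. CANA 4 was the highest of the later arrays and CANA 2 of the earlier ones, so the ranges of Rps13 overlapped over most of their length. Rps28 differed by -0.58 within CANA, 0.01 within CR and -0.25 within HFD, and Rps7, not among the 12, by -0.14, 0.28 and -0.61.

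A few large-subunit genes lay on the other side. Rpl38, known for its part in translation of Hox messengers in the mouse embryo, had 9.96, 10.03 and 10.13 in serial numbers 9 to 14, against 9.70, 9.88 and 9.96 in 1 to 8. The sets met without overlap, with a difference of 0.21 (SE 0.07, adjusted p = 0.177) and 0.15, 0.22 and 0.26 within CANA, CR and HFD. Rpl29 stood at 0.19 (adjusted p = 0.341), and Rpl28, Rpl17 and Rpl4 at 0.15, 0.18 and 0.10. Rps6 and Rplp0 stood at -0.13 and -0.18 (adjusted p = 0.48 and 0.425), with the dimmer Rplp0 probe set at 0.05, Rpl32 at -0.02 and Rpl19 at -0.09. Fau stood at -0.14 (adjusted p = 0.443).

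**Figure D3:**
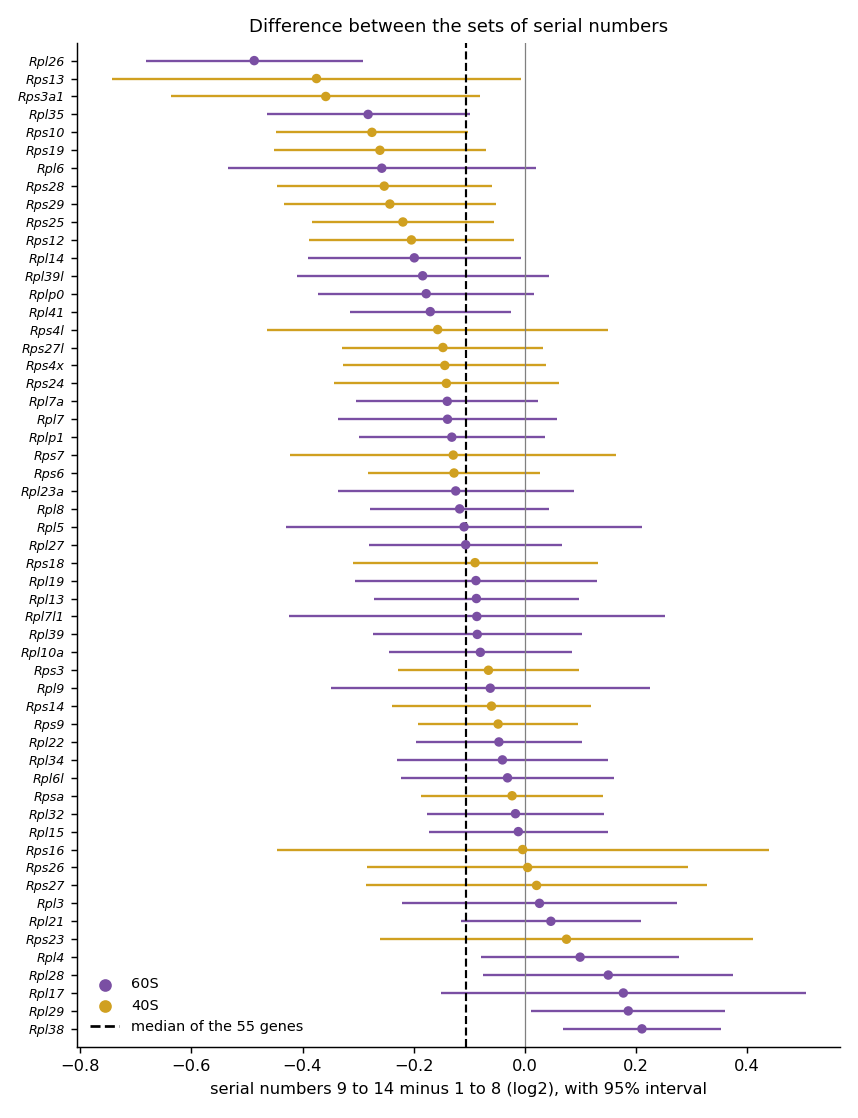
Difference between serial numbers 9 to 14 and 1 to 8 for each of the 55 tested ribosomal protein genes (horizontal axis, log2, with its 95% interval), ordered from the lowest at the top to the highest at the bottom. Rpl26 lies farthest below zero at -0.49 and Rpl38 farthest above at 0.21, and the dashed line marks the median of -0.11.

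The difference was uneven over arrays and groups. Averaged over the 55 genes, each taken from its own mean, CANA 1 to 4 lay at 0.10, 0.04, -0.15 and 0.04. CR 1 to 5 lay at 0.03, 0.00, 0.01, 0.02 and -0.04, and HFD 1 to 4 at 0.06, 0.08, -0.18 and -0.02. The means of all genes tested stayed between -0.02 and 0.02. CANA 3 and HFD 3, with serial numbers 9 and 10, thus stood lowest, and 49 and 46 of the 55 genes were below their own mean there. Within CANA the serial difference had a median of -0.11 with 41 of 55 genes below zero. Within HFD it was -0.21 with 44, and within CR 0.00 with 27. Of all genes 57.0%, 48.9% and 49.5% were below zero within CANA, HFD and CR, with medians of -0.03, 0.01 and 0.00. All 3 groups shared a negative sign in 20 genes (36.4%), against 19.1% of all genes. The test of whether the serial difference depends on treatment called none of the 55 in limma (0% of all genes). At an unadjusted p under 0.05 it had 2, Rps28 and Rps7, against 4.66% of all genes, both with an adjusted p of 0.995. Without CANA 3 and HFD 3 together, a choice made after seeing the data, the median serial difference was -0.06, 37 genes were below zero and 5 had an unadjusted p under 0.05, against 9.96% of all genes in that fit.

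**Figure D4:**
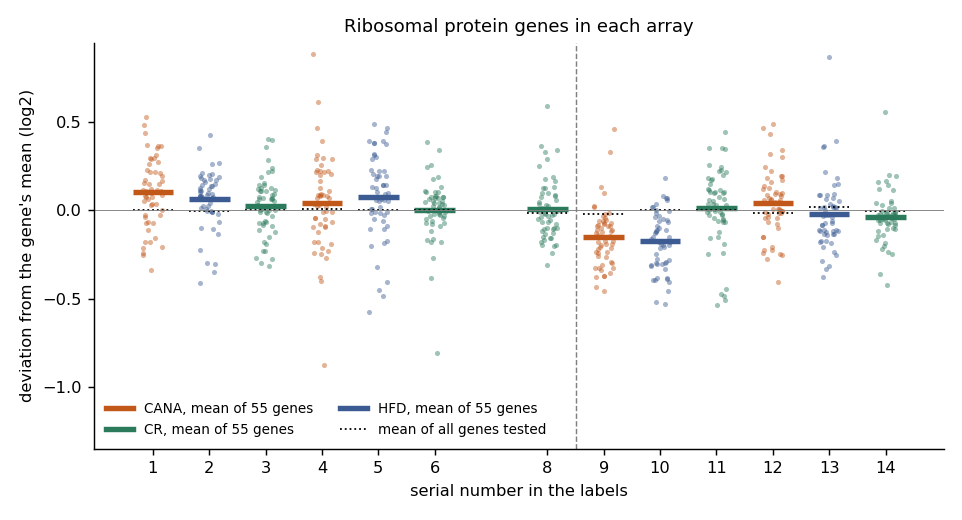
Deviation of the 55 tested ribosomal protein genes from their own means (vertical axis, log2) in each array by serial number (horizontal axis, none has number 7), 1 point a gene, with thick lines at the mean of the 55 genes and dotted lines at that of all genes tested. The arrays numbered 9 (CANA 3) and 10 (HFD 3) have the lowest means, -0.15 and -0.18.

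Treatment differences read within each set of serial numbers had different signs, in sets of only 2 or 3 arrays a group. The median CR minus HFD difference was 0.09 within 9 to 14, with 45 of 55 genes above zero, and -0.06 within 1 to 8, with 19 above. Of all genes 52.8% and 51.9% lay below zero, with a median of -0.01 in both sets. CANA minus HFD had medians of 0.04 and -0.02, and CANA minus CR of -0.05 and 0.06, in that order of sets. Within 9 to 14, the mean of the 55 genes was -0.18 in HFD 3 and -0.02 in HFD 4. It was 0.02 in CR 4 and -0.04 in CR 5, so HFD 3 weighed heavily on the CR minus HFD median. No gene of the 55 passed in limma within either set. Within 9 to 14 none of all genes did in any comparison (0%), and within 1 to 8 the share of all genes was 0.015% for CANA minus HFD, 0.0376% for CANA minus CR and 0% for CR minus HFD.

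Residual levels, after each group's mean was taken off, varied together in most of these genes. Over 13 arrays, which share each array's preparation and normalization, the pairwise Pearson r had a median of 0.26 over 1485 pairs, with quartiles of -0.02 and 0.51. Against the mean of the other genes, 32 of the 55 had an r over 0.5 and 7 had one below 0. CANA 3 and HFD 3, where 49 and 46 of the 55 genes were below their own mean, entered each r. No such r was taken over all genes, so whether it is particular to these genes was not tested. Rpl7a (0.93), Rps12 (0.91), Rpl23a and Rpl35 (both 0.89) followed that mean most closely, and Rps27 (-0.63), Rpl38 (-0.47), Rpl17 (-0.38) and Rpl29 (-0.27) ran against it. Outside the ribosomal proteins, the genes most like the mean were Sec61g, a subunit of the protein-conducting channel of the endoplasmic reticulum (r = 0.957), Mrpl35 of the mitochondrial ribosome (0.936), Ccdc66 (0.934), Tbx4 (0.925) and the splicing factor Cwc15 (0.910). Sec61g stood at -0.43 in the serial comparison (limma adjusted p = 0.134), and Mrpl35, Ccdc66, Tbx4 and Cwc15 at -0.19, -0.23, -0.14 and -0.25. These genes were picked for the highest r among all tested genes outside the ribosomal proteins. The residuals still held the serial difference, so a negative serial value follows in part from that choice.

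Where a gene had further probe sets above the dim limit, they were compared with the chosen one. There were 25 of them over 18 genes, and their sign was that of the chosen probe set in 22 for the serial comparison, with 17 below zero and a median of -0.07. For CANA minus HFD and for CR minus HFD the sign was shared by 14 of 25 each, and for CANA minus CR by 19. In 7 cases, as in Rps12, Rpl23a and Rps19, a probe set repeats the values of another and adds nothing of its own.

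Members of the wider translation machinery were read from lists. None of their genes passed limma's test in a treatment comparison. Of 16 tested elongation factors and other genes of TOP messengers, 13 were below zero in the serial comparison, with a median of -0.09, led by Naca of the nascent-chain complex at -0.31 (adjusted p = 0.0625). Of 25 initiation factors 18 were below zero (median -0.04), with the helicase Eif4a1 at -0.36 (adjusted p = 0.0806). Mitochondrial ribosomal proteins, encoded by another gene family, had 54 of 70 below zero and a median of -0.11. For CANA minus HFD 49 of these 70 lay above zero with a median of 0.05, against 46.1% of all genes above zero. Their mean deviation was 0.15 in CANA 1, but 0.05, -0.07 and 0.01 in CANA 2 to 4. In HFD 1 to 4 it was 0.02, 0.08, -0.04 and -0.08, so the CANA values were uneven and CANA 1 stood highest. In the serial comparison, ribosome biogenesis and polymerase I genes had 25 of 46 below zero and a median of -0.01. There 10 other qPCR reference genes had 5 below zero, with a median of 0.02. Of 21 genes of the mTORC1 pathway 11 were below zero with a median of -0.01. Its inhibitor Ddit4 stood at 0.77 (adjusted p = 0.0691) and the S6 kinase gene Rps6kb2 at 0.36 (adjusted p = 0.0869). For CANA minus HFD Ddit4 stood at 0.89 (adjusted p = 0.404) and for CR minus HFD at 0.82 (adjusted p = 0.999). Of 8 genes of MYC and its partners 7 were below zero in the serial comparison (median -0.09).

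In the serial comparison, markers of liver cell types also differed in sign between the lists. For Kupffer cells and macrophages 10 of 11 markers were below zero, with a median of -0.22 and none past the test. Their mean deviation ran from -0.65 to 0.31 in serial numbers 9 to 14, against -0.18 to 0.36 in 1 to 8, and it was -0.50 in HFD 3 but 0.16 in CANA 3. All 7 endothelial markers were above zero, with a median of 0.10. Hepatocyte markers had a median of 0.01 with 4 of 9 below zero, and Tat stood at 0.27 and Hnf4a at 0.19 (limma adjusted p = 0.171 and 0.300). None of these 27 markers was below the dim limit, and their part in the lower values of the ribosomal protein genes was not tested. Of the tested markers of stellate cells and fibroblasts 4 of 8 were below zero, of lymphocytes 2 of 5 and of proliferating cells 2 of 4. All 3 tested cholangiocyte markers and the 1 tested neutrophil marker were above zero.

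Introns of ribosomal protein genes hold small nucleolar RNAs (snoRNAs), which are trimmed from the same transcript and guide the modification of ribosomal RNA. By RefSeq spans (GRCm38.p6), 22 of the 67 genes held 44 snoRNA genes. The 17 tested genes with a snoRNA had a median serial difference of -0.09 with 13 below zero, and the 38 without one had -0.12 with 32 below zero. The 13 tested snoRNA genes inside them were all below zero, with a median of -0.77 and a range of -1.58 to -0.13. In 12 pairs, over 11 host genes, both were tested, and the snoRNA lay below its host in 11. Snord16a stood at -0.97 (adjusted p = 0.0816) where its host Rpl4 stood at 0.10. Snord58b stood at -1.11 (adjusted p = 0.0625) and its host Rpl17 at 0.18. Snora69 stood at -1.58 in Rpl39 at -0.09, AF357399 at -1.40 in Rps16 at -0.00, and Snora7a at -0.52 in Rpl32 at -0.02. Snora33 in Rps12 was the exception, at -0.14 against -0.20 for its host. The hosts Rps16, Rpl39 and Rpl17 were barely above the dim limit of 3.95, with means of 4.01, 4.06 and 4.12. A fall in these 3 hosts could be hard to see, so their values near or above zero do not show steady messengers. Rpl4 and Rpl32 were brighter, with means of 11.14 and 8.67. Over all 68 tested genes named as snoRNAs, 65 were below zero with a median of -0.55, and 6 were called lower in limma, Snord49a and Snord49b among them, where 0.0601% of all genes were. Their mean deviation was negative in all 6 arrays numbered 9 to 14, from -0.54 to -0.11, and it was -0.25 in CANA 3 and -0.27 in HFD 3. The lowest snoRNA arrays were HFD 4 and CANA 4, whereas the ribosomal protein genes were lowest in HFD 3 and CANA 3.

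**Figure D5:**
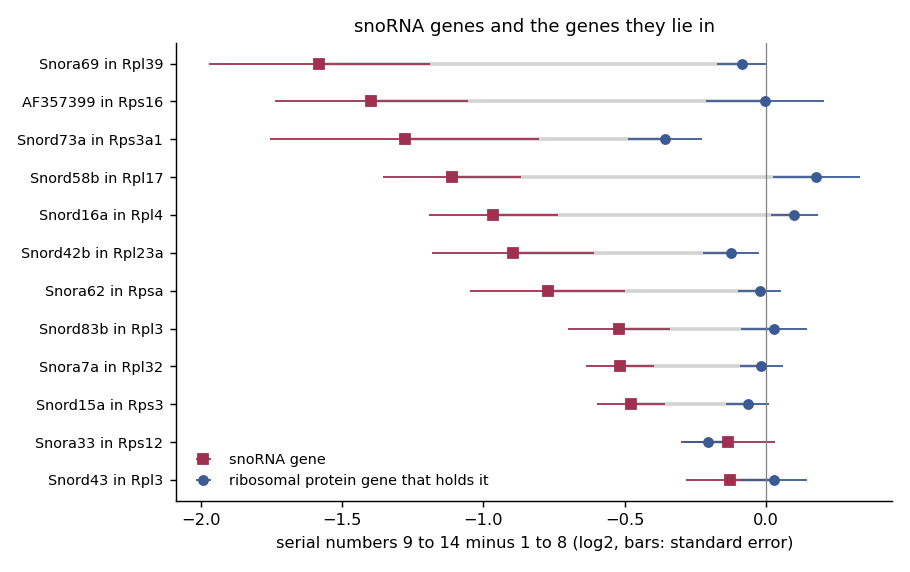
Difference between serial numbers 9 to 14 and 1 to 8 (horizontal axis, log2, bars for the standard error) of 12 snoRNA genes (squares) and of the ribosomal protein genes they lie in (circles). The snoRNA lies below its host in 11 of 12 pairs, while most hosts lie near zero. The hosts Rps16, Rpl39 and Rpl17 have means of 4.01, 4.06 and 4.12, near the dim limit of 3.95.

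The serial difference was also read by promoter feature, over the 42 tested genes with an entry. The 19 tested genes whose promoter held CCGGAAG had a median of -0.13, and the 23 without it had -0.09. The 30 with a pyrimidine run of at least 8 had a median of -0.10, and the 12 without one had -0.13. These medians are descriptions and were not tested.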

How the data were processed

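Liver RNA was hybridised to 13 Affymetrix arrays. The log2 values were made by the authors with RMA in Affymetrix Expression Console per the submitters' processing notes, with versions not given in the sources used here. Scanner files were not used here. Gene names came from the platform's annotation, for probe sets with a single symbol. The Entrez identifiers of all 67 genes matched RefSeq (GRCm38.p6). Groups and serial numbers came from the labels.

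All 13 arrays entered a limma fit (limma 3.58.1, R 4.3.3), with Benjamini-Hochberg adjustment over all 13308 genes, two-sided. Treatment comparisons had no covariate, and the serial comparison had the group as a term. The pipeline was tested on simulated data. The members, lists, named genes and tests were chosen with earlier results of these data known. The rule for named genes took, in each comparison, called genes, the 5 highest and 5 lowest by moderated t, and fixed genes (qPCR references, Rps6, stalk, paralogs). From each list it took called genes, or else up to 3 with the smallest p, and it added the 5 genes most like the members' mean. Those beyond the text are in the figures and counts. A prior choice of a window of 20 bases on each side of the start was widened after the sequences were seen.

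Other settings were other filters, normalization, centring, variance models, array weights, probe-set means, an adjusted p of 0.10, serial number as a covariate, replicate number as a block, single groups or sets, and leaving out arrays.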

Additional observations from a re-analysis of the deposited data

Results flagged for a closer look

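In 36 named genes and in the mean of the 55 tested genes, 111 groups of 4 or 5 arrays were examined for an array far from the rest by Dixon's criterion, and 3 were found, where chance alone gives about 1 in 20. Rpl22 was lowest in HFD 4, at 5.25 with the nearest HFD array at 5.35. Rpl35 was highest in CR 2, at 9.70 with the nearest CR array at 9.58. Rpl4 was lowest in CR 1, at 10.84 with the nearest CR array at 11.17.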

How the results depend on the processing

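In the 3 treatment comparisons no ribosomal protein gene was called under any alternative run. Leaving out 1 array in turn gave medians of -0.04 to 0.06 for CANA minus HFD, -0.03 to 0.05 for CR minus HFD and -0.02 to 0.08 for CANA minus CR. In the serial comparison Rpl26 was the 1 gene called with the 60th percentile as the filter (adjusted p = 0.0371), with each array centred on its median (0.0486), with a mean-variance trend (0.0363), with array weights (0.0407) and at an adjusted p under 0.10 (0.051), where 0.346 to 1.16% of all genes were called. Leaving out 1 array gave 0 to 1 called (0 to 0.654% of all genes), medians of -0.14 to -0.08, 40 to 47 genes below zero and 9 to 15 with an unadjusted p under 0.05 (9 without HFD 3), against 11.2 to 13.7% of all genes. The median was -0.21 in HFD alone and 0.00182 in CR alone, where 27 genes were below zero. Genes with an unadjusted p under 0.05 numbered 5 in CANA alone (6.54% of all genes), 5 in CR alone (4.88%) and 11 in HFD alone (11.2%). They numbered 9 with a slope on the serial number (11.9%) and 5 without CANA 3 and HFD 3 (9.96%). These settings use fewer arrays or another term, and the cause was not tested. Same-numbered arrays correlated at 0.02 to 0.30 between CANA and HFD, -0.15 to 0.12 between CR and HFD and -0.14 to 0.21 between CANA and CR, with 3 of 4, 1 of 4 and 3 of 4 pairs over 0.1. In that order 6, 2 and 6 of 8 arrays correlated best with their own number, and same-numbered arrays also have neighbouring serial numbers. Not every pair passed 0.1 and the labels state no pairing, so the numbers were not used to pair the arrays, and whether they share a source cannot be told. A replicate block gave a serial median of -0.18, 6 genes at an unadjusted p under 0.05 (8.46% of all genes) and no call. That fit rests on replicate number 3, the only number with arrays in both sets. Among named genes the sign turned in 42 of 722, 31 of 722, 44 of 635 and 36 of 780 recomputed differences, in the order CANA minus HFD, CR minus HFD, CANA minus CR and serial. With 4 or 5 arrays a group, the median standard error of the 55 genes was 0.12 to 0.13 in the treatment comparisons.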
